A study of Homo sapiens with 8 samples.

Results

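The HLA class I heavy chains HLA-B, HLA-C, HLA-E, HLA-F and HLA-G and their shared light chain B2M were followed across an RNA sequencing experiment on the Ewing sarcoma cell line RD-ES. These 6 genes were taken by symbol from the 22257 gene symbols of the deposited count table, with the transcript row of highest total for each symbol. All 6 passed the filter on low counts, as did 14601 genes in all. Every library came from a pool of RD-ES cells, not a clone, in which USP6, a ubiquitin-specific protease and oncogene, had been stably placed under doxycycline control. The 4 groups of 2 replicates were untreated cells, cells given interferon alpha, cells given doxycycline, and cells given both agents. Interferon alpha was used at 1000 U/mL for 24 h. In the combined group doxycycline preceded it by 24 h. The time on doxycycline of cells without interferon is not stated. The untreated cells carried the transgene too. No doxycycline-treated cells without it were analysed here, so USP6 and doxycycline itself cannot be told apart. The stated question was how USP6 and interferon, each alone or together, alter gene induction.

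Class I molecules display peptides on the cell surface. A polymorphic heavy chain pairs with beta-2 microglobulin, is loaded with peptides cut by the proteasome and pumped into the endoplasmic reticulum by the TAP transporter, and is read by cytotoxic T cells and by receptors of natural killer cells. HLA-B and HLA-C are classical chains that present peptides to T cells, and HLA-C is also a main ligand of killer immunoglobulin-like receptors. HLA-E, HLA-F and HLA-G are non-classical chains: HLA-E shows leader peptides of other class I chains to CD94/NKG2 receptors, HLA-F is a ligand of natural killer cell receptors, and HLA-G is known from trophoblast. Type I interferon is a textbook inducer of class I genes, acting through interferon-stimulated response elements in their promoters, beside sites for NF-kB and for the SXY-binding complex that NLRC5 joins.

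The libraries held between 9304569 and 11984196 reads in the rows used. USP6 checked the labels: it stood at 9.32 ± 0.783 CPM (counts scaled to a common library size, mean ± SD, n = 2 libraries) in untreated cells and 9.75 ± 0.816 CPM with interferon, against 563.4 ± 7.42 CPM with doxycycline and 393.0 ± 22.6 CPM with both agents. Among doxycycline-treated cells USP6 was thus lower with interferon (log2 change -0.52 ± 0.08, edgeR adjusted p = 0.0044), so the USP6 level differed between the doxycycline groups behind the interaction, and its part in that result was not tested. All 8 genes of the Ewing sarcoma list examined had reads in every library, with a summed level between 1670 and 2340 CPM. Reads of a listed gene do not by themselves identify the cells. Most of that sum was CCND1, at 1020 to 1520 CPM. CD99 (2.22 to 3.06 CPM) and PHLDA1 (0.399 to 2.42 CPM) were low. The other listed genes lay between 5.46 CPM, the lowest value of NR0B1, and 431 CPM, the highest of PRKCB. Of 10 leukocyte markers, whose cells carry much class I, the sum was 5.55 to 8.26 CPM in all libraries, and the T-cell and B-cell genes CD3E, CD3D and MS4A1 had no more than 1 read in any library. Trophoblast markers were at or near 0 in every library, and CGA and PSG1 had no reads. Fibroblast markers summed to between 39.8 and 58.2 CPM and endothelial markers to between 0.652 and 2.09 CPM; their part in the results was not tested. Whether the replicates of a group were separate cultures is not stated, so the spread that the p-values measure may be technical only. In a bulk sample a larger share of expressing cells cannot be told apart from more RNA per cell.

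The promoters are shown because the genes moved together with interferon, as described further on. Each is the 250 bases before the annotated transcription start, from RefSeq on build GRCh38.p14, written on the gene's strand, and 5 of the 6 genes have an entry. HLA-B lies at chr6:31357180-31357429 on the minus strand, HLA-C at chr6:31272093-31272342 on the minus strand, HLA-F at chr6:29723184-29723433 on the plus strand and B2M at chr15:44711267-44711516 on the plus strand. Capitals mark matches, on either strand, to the interferon-stimulated response element spelled GAANNGAAA or GAAANNGAA, and to the NF-kB site spelled GGGATTCCC. The second response element spelling was added after the sequences had been seen.
HLA-B: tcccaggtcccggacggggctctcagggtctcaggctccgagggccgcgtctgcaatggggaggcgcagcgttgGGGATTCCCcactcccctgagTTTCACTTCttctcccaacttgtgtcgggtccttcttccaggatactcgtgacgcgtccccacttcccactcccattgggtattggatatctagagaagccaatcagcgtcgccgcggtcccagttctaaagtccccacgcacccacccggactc
HLA-C: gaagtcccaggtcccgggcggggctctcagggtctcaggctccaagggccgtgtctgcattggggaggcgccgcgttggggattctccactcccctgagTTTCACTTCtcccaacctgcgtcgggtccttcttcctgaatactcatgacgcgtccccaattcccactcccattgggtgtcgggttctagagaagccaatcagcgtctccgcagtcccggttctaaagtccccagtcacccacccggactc
HLA-F: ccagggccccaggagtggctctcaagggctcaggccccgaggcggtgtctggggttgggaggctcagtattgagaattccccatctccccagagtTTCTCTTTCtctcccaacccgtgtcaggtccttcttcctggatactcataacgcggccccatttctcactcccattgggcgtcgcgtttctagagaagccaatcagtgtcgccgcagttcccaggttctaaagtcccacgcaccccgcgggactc
B2M: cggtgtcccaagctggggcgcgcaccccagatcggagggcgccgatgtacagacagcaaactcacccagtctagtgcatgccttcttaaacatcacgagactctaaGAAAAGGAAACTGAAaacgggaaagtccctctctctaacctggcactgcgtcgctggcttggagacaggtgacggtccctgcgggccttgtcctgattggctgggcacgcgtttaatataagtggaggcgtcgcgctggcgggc

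HLA-B held GAANNGAAA on the opposite strand 155 to 147 bases before the start, and HLA-C held it at 151 to 143 bases. HLA-F held the second spelling at 155 to 147 bases on the opposite strand. B2M held 2 overlapping copies of that spelling on its own strand, at 144 to 136 and at 138 to 130 bases. Of 35116 promoter windows of this length, 6.6% hold the first spelling, 6.9% the second and 12.4% either. The NF-kB spelling was found in HLA-B only among the windows of the 5 genes, at 176 to 168 bases, and in 0.4% of all windows. It overlaps neither response element. The X2 box TGACGC, part of the SXY module, was found in HLA-B at 106 to 101 bases and in HLA-C at 105 to 100 bases (7.7% of all windows). The Y box ATTGG was found in all 5 genes (32.0% of all windows), and the gamma-activated spelling TTCNNNGAA in none (6.6% of all windows). HLA-G has 3 annotated starts, and only the window at chr6:29827575-29827824 resembled the other heavy chains, with 81.3% identity to HLA-B and 85.7% to HLA-C. That window held the Y box and neither response element spelling. The HLA-B and HLA-C windows were 91.9% identical. A match is a description of the reference letters, not of binding or of the alleles of RD-ES.

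The heavy chains also resemble each other in their transcripts, which bears on how reads are assigned. Aligned reference transcripts of the 5 heavy chains were between 80.6% and 92.6% identical, and HLA-B and HLA-C were the closest pair. Of all 50-base stretches in the reference transcript, 2.5% of HLA-B, 6.8% of HLA-C, 5.1% of HLA-E, 1.7% of HLA-F and 4.4% of HLA-G recur exactly in another gene, against 0% of B2M. How reads that fit several genes were counted is not given in the sources used here, and reads from the cell line's own alleles may be placed on the wrong heavy chain. Values for single heavy chains are uncertain to that extent, and their sum is given further on. HLA-F lies opposite the antisense RNA HLA-F-AS1, whose own row held between 4 and 20 reads, and whether counting used strand is not given.

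In untreated cells B2M was by far the most abundant of the 6 transcripts. Per kilobase of reference transcript, B2M stood at 925.9 ± 26.2 RPKM (the scaled count per kilobase of transcript, mean ± SD, n = 2), followed by HLA-B at 30.1 ± 4.38, HLA-C at 14.8 ± 3.42, HLA-E at 10.1 ± 0.726, HLA-F at 0.961 ± 0.12 and HLA-G at 0.584 ± 0.0246 RPKM. HLA-C (17.3 and 12.4 RPKM) and HLA-E (10.6 and 9.60 RPKM) were the closest neighbours, and their libraries did not overlap. The order B2M, HLA-B, HLA-C, HLA-E, HLA-F, HLA-G was the same in all 4 groups. With both treatments the levels were 3349 ± 286 RPKM for B2M, 438.8 ± 30.4 for HLA-B, 137.1 ± 16.6 for HLA-C, 71.97 ± 8.89 for HLA-E, 13.8 ± 4.12 for HLA-F and 2.90 ± 0.575 for HLA-G. HLA-F and HLA-G rested on few reads: HLA-G had 10 reads in each untreated library and HLA-F 18 and 16.

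**Figure D1:**
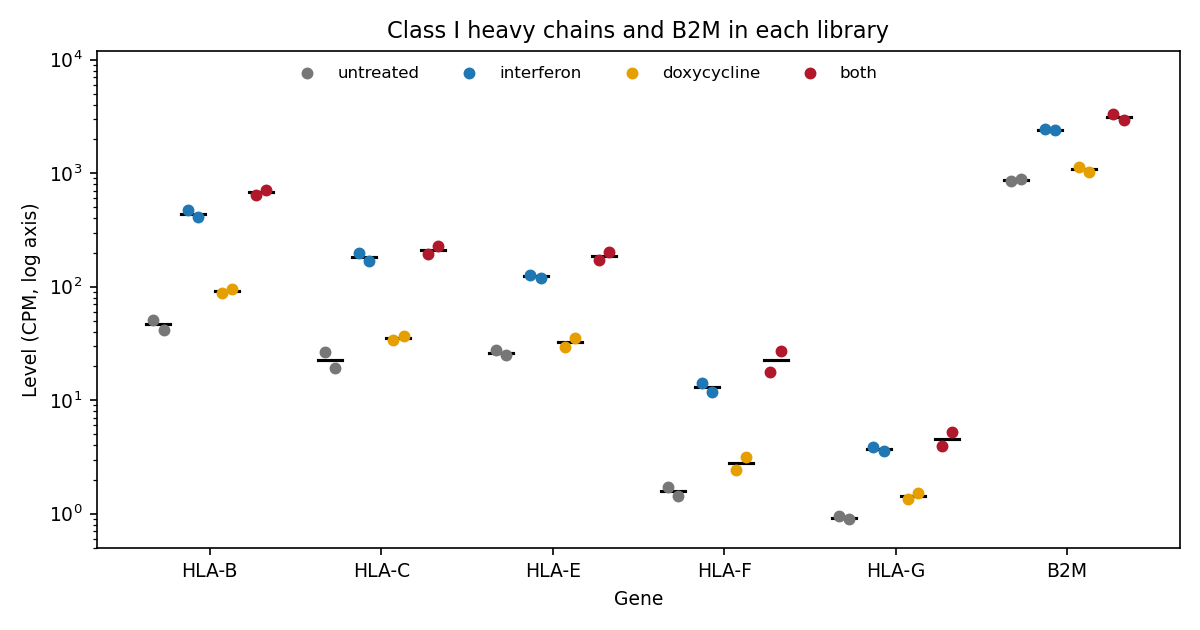
Level of each gene in each library as CPM on a log axis, coloured by group; points are libraries and bars are group means (n = 2). The interferon and combined groups lie above both other groups for every gene, and B2M is the highest and HLA-G the lowest gene in every group.

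Every adjusted p that follows, unless DESeq2 is named, is from edgeR's quasi-likelihood F test with Benjamini-Hochberg adjustment over all 14601 genes, and calls have an adjusted p under 0.05. Interferon alone raised all 6 genes, with folds from 8.03 to 9.46 for HLA-B, HLA-C and HLA-F, 4.69 for HLA-E, 3.99 for HLA-G and 2.76 for B2M. HLA-B read 51.4 and 41.8 CPM in untreated cells and 470.0 and 410.6 CPM with interferon. Its log2 change was 3.24 ± 0.12 (± SE, edgeR adjusted p = 1.9e-08). HLA-C went from 26.5 and 19.1 CPM to 197.1 and 168.1 CPM, a log2 change of 3.01 ± 0.16 (edgeR adjusted p = 2.8e-07). For both classical chains the interferon libraries lay several times above the untreated ones and the groups did not overlap.

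Among the non-classical chains, HLA-E, the ligand of CD94/NKG2 receptors, read 27.6 and 25.0 CPM in untreated cells and 127.8 and 118.7 CPM with interferon. Its log2 change was 2.23 ± 0.12 (edgeR adjusted p = 5.1e-07). HLA-F went from 1.71 and 1.43 CPM to 14.3 and 11.9 CPM (log2 change 3.05 ± 0.30, edgeR adjusted p = 8.2e-05). All of these interferon libraries were above all untreated libraries of the same gene. HLA-G had 10 and 10 reads in untreated cells and 39 and 37 with interferon, a log2 change of 2.0 ± 0.32 (edgeR adjusted p = 0.0053). The HLA-G call was lost without untreated replicate 2 (log2 change 1.96, edgeR adjusted p = 0.0792) and without interferon replicate 1 (1.94, edgeR adjusted p = 0.0637). The light chain B2M had the smallest estimate. It went from 855.6 and 890.6 CPM to 2433 and 2391 CPM, a log2 change of 1.47 ± 0.10 (edgeR adjusted p = 3.4e-06). Its level per kilobase nonetheless gained more than that of the 5 heavy chains together, from a mean of 925.9 to 2558 RPKM against 56.6 to 461.2 RPKM.

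All 6 genes were thus called higher with interferon, where 1.62% of all genes tested were called higher and 0.5% lower (2.12% in either direction). Their median log2 change was 2.62, beside -0.01 over all genes tested. The share of higher calls among all genes depended on whether values were corrected for the GC content and length of transcripts, library by library: 237 genes were called higher and 73 lower as counted, and 413 and 537 with the correction, under which all 6 genes were still called.

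Doxycycline alone, which switches on USP6, raised HLA-B and none of the other 5 genes by the test. HLA-B read 51.4 and 41.8 CPM in untreated cells and 87.7 and 95.3 CPM with doxycycline. Its log2 change was 0.97 ± 0.12 (edgeR adjusted p = 0.0019), close to a doubling, with a 95% interval from 0.71 to 1.24. Both doxycycline libraries were above both untreated libraries, and HLA-B kept its call under each of the 18 alternatives tried, with log2 changes from 0.82 to 1.13. The edgeR adjusted p came closest to the threshold without untreated replicate 2, at 0.0469.

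The other genes moved in the same direction without passing the test. HLA-C read 33.8 and 36.5 CPM in those libraries, for a log2 change of 0.63 ± 0.16 (edgeR adjusted p = 0.12). It was called with DESeq2 (0.62, adjusted p = 0.0135) and with the correction for GC content (0.80, edgeR adjusted p = 0.001). HLA-E read 29.6 and 35.0 CPM (log2 change 0.30 ± 0.13, edgeR adjusted p = 0.35), HLA-F 2.42 and 3.15 CPM (0.82 ± 0.35, edgeR adjusted p = 0.34) and HLA-G 1.34 and 1.53 CPM (0.63 ± 0.36, edgeR adjusted p = 0.48). The spread of HLA-F and HLA-G is wide because they rest on few reads: their 95% intervals ran from 0.05 to 1.59 and from -0.17 to 1.42. B2M read 1140 and 1032 CPM, a log2 change of 0.31 ± 0.10 (edgeR adjusted p = 0.21) that fell to 0.18 with the correction for GC content. For all 6 genes both doxycycline libraries lay above both untreated libraries. By the test 1 of 6 was called higher, beside 0.719% of all genes called higher and 0.0959% lower (0.815% in either direction), and 5 of 6 had an unadjusted p under 0.05, as did 1993 of the 14601 genes tested. The median log2 change of the 6 genes was 0.63, beside 0.0 over all genes.

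GC content differed in its effect between the libraries, which touches these smaller changes. Across genes, the correlation of a library's deviation with GC content (Spearman's rho) ran from -0.637 in replicate 1 of the combined group to 0.581 in untreated replicate 1. The heavy chains have transcripts of 54.8% to 60.2% GC and B2M of 39.1%. With the correction, the doxycycline change of HLA-B was 1.11 and that of B2M 0.18, and all genes called split into 269 higher and 281 lower, in place of 105 and 14. DESeq2 called 142 genes higher and 94 lower.

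**Figure D2:**
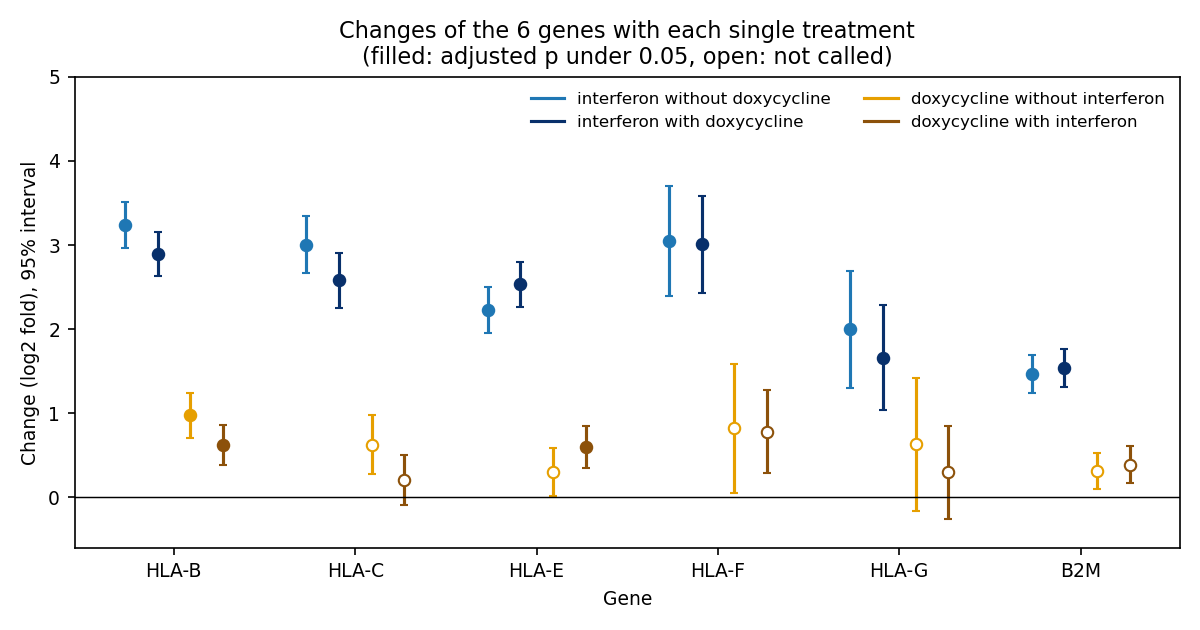
Log2 fold change of each gene with each single treatment, given alone and in the presence of the other agent; bars are 95% intervals from the edgeR fit of 8 libraries and filled points have an adjusted p under 0.05. The interferon changes are all called, from 1.47 to 3.24, while of the doxycycline changes those of HLA-B, and of HLA-E in interferon-treated cells, are called.

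In cells already expressing USP6, interferon again raised all 6 genes, beside 2.42% of all genes called higher and 0.904% lower (3.33% in either direction). HLA-B went from 87.7 and 95.3 CPM with doxycycline to 645.5 and 712.0 CPM with both agents, a log2 change of 2.89 ± 0.12 (edgeR adjusted p = 4.9e-08). HLA-C went from 33.8 and 36.5 to 192.6 and 228.6 CPM (2.58 ± 0.15, edgeR adjusted p = 7.4e-07). The groups of both classical chains were far apart.

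The non-classical chains followed: HLA-E went from 29.6 and 35.0 to 170.8 and 203.5 CPM (log2 change 2.53 ± 0.12, edgeR adjusted p = 1.7e-07). HLA-F went from 2.42 and 3.15 to 17.7 and 27.3 CPM (3.01 ± 0.26, edgeR adjusted p = 2.6e-05). HLA-G went from 16 and 18 reads to 39 and 48 (1.66 ± 0.28, edgeR adjusted p = 0.0059). Again no library of one group reached into the other. HLA-G lost its call without doxycycline replicate 1 (edgeR adjusted p = 0.0686) and without replicate 2 of the combined group (edgeR adjusted p = 0.0541). B2M rose from 1140 and 1032 to 3349 and 2968 CPM, by 1.54 ± 0.10 on the log2 scale (edgeR adjusted p = 2.1e-06). After the correction for GC content, 751 genes in all were called higher and 727 lower, in place of 354 and 132.

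The interferon response of the 6 genes was not shown to differ between cells with and without doxycycline. The interaction, the log2 change with interferon in doxycycline-treated cells minus that in cells without it, was -0.35 ± 0.16 for HLA-B, -0.42 ± 0.21 for HLA-C, 0.30 ± 0.17 for HLA-E, -0.04 ± 0.38 for HLA-F, -0.33 ± 0.44 for HLA-G and 0.07 ± 0.14 for B2M. In the edgeR test none of the 6 was called and none had an unadjusted p under 0.05, and DESeq2 called none of the 5 for which it gave an adjusted p, HLA-G having none. Of all genes 0.171% were called, 0.00685% higher and 0.164% lower, which is 1 and 24 genes, and 10 higher and 41 lower with the correction for GC content. The 95% intervals allow a reduced interferon response of HLA-B down to -0.71 and of HLA-C down to -0.88, and a raised one of HLA-E up to 0.68. The sum of the single changes set against the observed combined change was 4.22 and 3.87 for HLA-B, 3.63 and 3.21 for HLA-C, 2.53 and 2.83 for HLA-E, 3.87 and 3.83 for HLA-F, 2.63 and 2.29 for HLA-G and 1.78 and 1.85 for B2M, on the log2 scale.

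On top of interferon, doxycycline raised HLA-B and HLA-E by about 1.5-fold, 2 of 6 genes beside 1.07% of all genes called higher and 0.274% lower (1.34% in either direction). HLA-B went from 470.0 and 410.6 CPM with interferon to 645.5 and 712.0 CPM with both agents, a log2 change of 0.62 ± 0.11 (edgeR adjusted p = 0.0194). HLA-E went from 127.8 and 118.7 to 170.8 and 203.5 CPM, a log2 change of 0.60 ± 0.11 (edgeR adjusted p = 0.0262). Their groups did not overlap, but both calls were lost when certain single libraries were left out. The log2 changes on leaving out a library stayed between 0.53 and 0.72 for HLA-B and between 0.47 and 0.72 for HLA-E. HLA-B lost its call without either interferon library (log2 change 0.72 and edgeR adjusted p = 0.0911 without replicate 1, 0.53 and 0.377 without replicate 2) and without either library of the combined group (0.69 and 0.0625 without replicate 1, 0.55 and 0.0632 without replicate 2). HLA-E lost it without either interferon library (0.65 and edgeR adjusted p = 0.17 without replicate 1, 0.55 and 0.452 without replicate 2) and without replicate 2 of the combined group (0.47 and 0.0886), and with summed rows (0.61 and 0.0512).

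HLA-C, the closest relative of HLA-B by sequence, showed no call here: its libraries with both agents, 192.6 and 228.6 CPM, overlapped those with interferon, 197.1 and 168.1 CPM. Its log2 change was 0.21 ± 0.14 (95% interval -0.09 to 0.50, edgeR adjusted p = 0.5), and 0.41 with the correction for GC content (edgeR adjusted p = 0.0127). HLA-F read 14.3 and 11.9 CPM with interferon and 17.7 and 27.3 CPM with both agents, a log2 change of 0.78 ± 0.22 (edgeR adjusted p = 0.14). HLA-G stood at 3.89 and 3.54 against 3.93 and 5.21 CPM (0.30 ± 0.25, edgeR adjusted p = 0.61). The 95% intervals ran from 0.29 to 1.28 for HLA-F and from -0.26 to 0.85 for HLA-G on the log2 scale. B2M read 2433 and 2391 CPM with interferon and 3349 and 2968 CPM with both agents, a log2 change of 0.39 ± 0.10 (edgeR adjusted p = 0.098). It was called with DESeq2 (0.40, adjusted p = 0.0027), without replicate 2 of the combined group (0.47, edgeR adjusted p = 0.0428) and, at 0.24, with the correction for GC content (edgeR adjusted p = 0.0176). With that correction 5 of the 6 genes were called, all but HLA-G, and all genes called split into 357 higher and 255 lower, in place of 156 and 40. The median log2 change of the 6 genes was 0.5, beside -0.01 over all genes.

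With both agents against none, all 6 genes were called higher, beside 7.12% of all genes called higher and 6.73% lower (13.9% in either direction). The fold was 14.6 for HLA-B, 14.2 for HLA-F, 9.26 for HLA-C, 7.12 for HLA-E, 4.90 for HLA-G and 3.62 for B2M. On the log2 scale HLA-B changed by 3.87 ± 0.13 (edgeR adjusted p = 3.6e-09), HLA-G by 2.29 ± 0.31 (edgeR adjusted p = 0.00074) and B2M by 1.85 ± 0.10 (edgeR adjusted p = 2.8e-07). All 6 calls held under each of the 18 alternatives. Over all genes, 1040 were called higher and 983 lower, and 1213 and 1860 with the correction for GC content.

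Summed over the 5 heavy chains, where reads moved from one HLA gene to another stay in the total, the level rose from 108.2 and 88.1 CPM in untreated cells to 813.2 and 712.7 CPM with interferon. It was 154.8 and 171.4 CPM with doxycycline and 1031 and 1177 CPM with both agents. The groups stood in the order untreated, doxycycline, interferon, both, with no overlap. The fold was 7.77 with interferon alone and 1.66 with doxycycline alone, against 2.76 and 1.24 for B2M. With further HLA class I symbols of the table added to the sum, the interferon fold was 5.83.

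The balance of heavy chains to light chain shifted with interferon. Per kilobase, the 5 heavy chains together amounted to 0.0691 and 0.0534 of B2M in the untreated libraries and to 0.191 and 0.17 with interferon. The ratio was 0.0764 and 0.0929 with doxycycline and 0.175 and 0.225 with both agents. The untreated and interferon libraries did not overlap, nor did those with doxycycline and with both, while interferon alone and both agents overlapped. A ratio of transcripts says nothing of protein at the surface.

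Within the heavy-chain reads, HLA-B took a larger share after either agent. Its share was 47.5% and 47.4% in untreated cells, 57.8% and 57.6% with interferon, 56.6% and 55.6% with doxycycline, and 62.6% and 60.5% with both. HLA-E went the other way, from 25.6% and 28.3% in untreated cells to 15.7% and 16.7% with interferon, 19.1% and 20.4% with doxycycline and 16.6% and 17.3% with both. HLA-C held 24.5% and 21.6% in untreated cells, 24.2% and 23.6% with interferon, 21.8% and 21.3% with doxycycline and 18.7% and 19.4% with both agents. Within a library, the log2 ratio of HLA-B to HLA-C reads was 0.96 and 1.13 in untreated cells, 1.25 and 1.29 with interferon, 1.38 and 1.39 with doxycycline and 1.74 and 1.64 with both agents. The 4 groups did not overlap in this ratio, which does not depend on library size but does depend on how shared reads were placed.

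**Figure D3:**
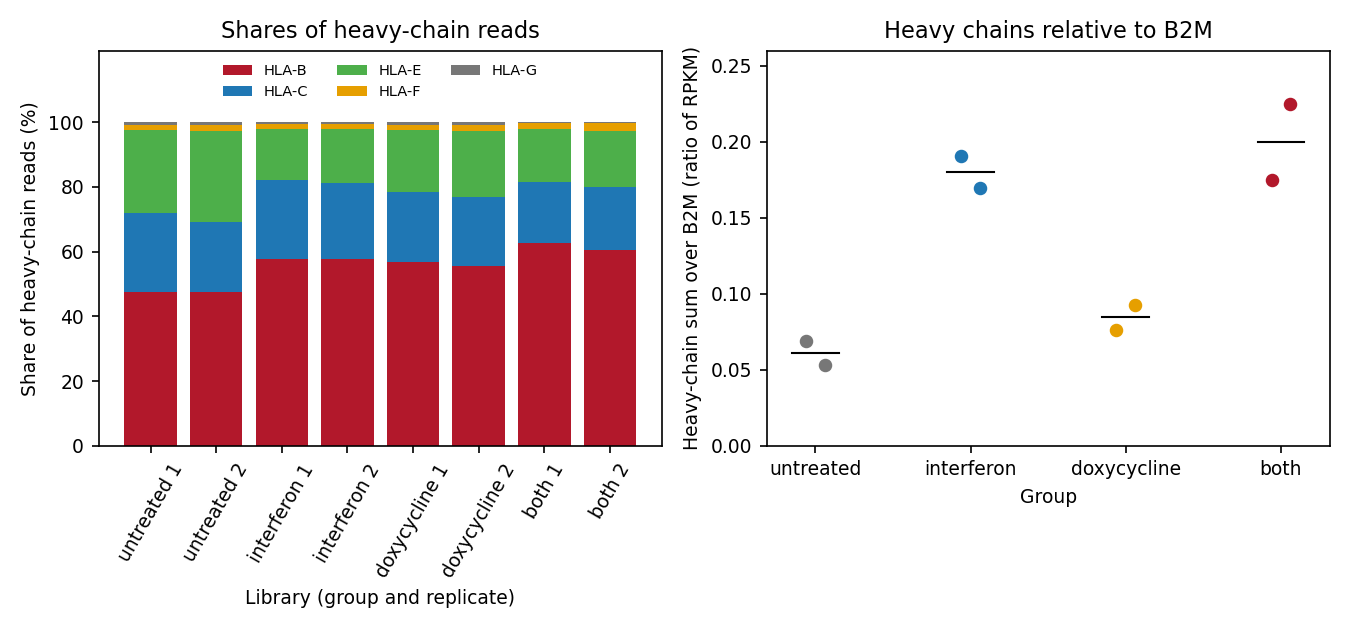
Left, share of each heavy chain in the summed heavy-chain reads of each library, in percent, as stacked bars; right, ratio of the summed heavy chains to B2M per kilobase, with points for libraries and bars for group means (n = 2). HLA-B takes about 47% of the reads in untreated libraries and above 60% with both agents, and the ratio to B2M is below 0.1 in the groups without interferon and above 0.16 in those with it.

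About as many of the genes that supply peptides to class I or regulate it were called with interferon as were not. Of 25 such pathway genes, all tested, 13 were called higher, none lower and 12 not called. Of all genes, 1.62% were called higher and 0.5% lower. The median log2 change of the 25 was 0.68, beside -0.01 over all genes. Named by their p-value with both agents, the leading members were TAP1, a subunit of the peptide transporter, ERAP2, an aminopeptidase that trims peptides, and the immunoproteasome subunits PSMB8 and PSMB9. TAP1 read 14.5 and 11.0 CPM in untreated cells and 143.4 and 150.3 CPM with interferon (log2 change 3.53 ± 0.13, edgeR adjusted p = 1.2e-08). ERAP2 changed by 2.54 ± 0.13 and PSMB8 by 3.09 ± 0.17 (edgeR adjusted p = 3.0e-07 and 3.5e-07). PSMB9 was barely read in untreated cells, at 0.285 and 0.0895 CPM, and stood at 23.5 and 25.6 CPM with interferon (edgeR adjusted p = 4.6e-07). NLRC5, the class I transactivator, was also among the genes called, while the peptide-loading chaperones CALR, CANX and PDIA3 and the Y-box subunits NFYA, NFYB and NFYC were not. Among the calls, IRF1, IRF2, RFX5 and TAPBP lost theirs without at least 1 of untreated replicate 2 and interferon replicates 1 and 2 (edgeR adjusted p from 0.0876 to 0.256 in those fits), RFX5 also without untreated replicate 1 (edgeR adjusted p = 0.155). With summed rows TAPBP and IRF2 lost theirs (edgeR adjusted p = 0.081 and 0.0527).

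With doxycycline alone 3 of the 25 pathway genes were called higher, beside 0.719% of all genes called higher and 0.0959% lower. TAP1 read 27.8 and 30.6 CPM, a log2 change of 1.20 ± 0.13 (edgeR adjusted p = 0.00075). ERAP2 read 76.9 and 65.7 CPM against 42.8 and 34.6 CPM in untreated cells (0.88 ± 0.13, edgeR adjusted p = 0.0087) and lost its call without untreated replicate 2 (0.72, edgeR adjusted p = 0.131) or doxycycline replicate 1 (0.77, edgeR adjusted p = 0.0856). PSMB9 read 1.25 and 2.55 CPM (edgeR adjusted p = 0.023). That call did not hold when either untreated library, either interferon library or doxycycline replicate 2 was left out (edgeR adjusted p from 0.0515 to 0.326), nor with only the groups compared (edgeR adjusted p = 0.111). TAP1 and both other genes were higher in both doxycycline libraries than in both untreated ones.

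In doxycycline-treated cells interferon raised 2.42% of all genes by the test and lowered 0.904%. Among the 25 pathway genes it again gave 13 calls, all higher, with a median log2 change of 0.64. IRF2, RFX5 and TAPBP lost theirs without doxycycline replicate 1 (edgeR adjusted p from 0.0844 to 0.0984), among other libraries and settings. On top of interferon, doxycycline gave 2 calls, beside 1.07% of all genes called higher and 0.274% lower. They were TAP1 and IRF1, an interferon regulatory factor that binds the class I response element. TAP1 went from 143.4 and 150.3 to 273.4 and 280.3 CPM (log2 change 0.91 ± 0.10, edgeR adjusted p = 0.00097). IRF1 went from 10.8 and 12.7 CPM with interferon to 37.3 and 41.2 CPM with both agents (1.74 ± 0.18, edgeR adjusted p = 0.00047), while with doxycycline alone it read 5.17 and 7.40 CPM against 4.84 and 4.92 CPM untreated. Its interaction was 1.38 ± 0.28 (unadjusted p = 0.00051, edgeR adjusted p = 0.194) and was not called. None of the 25 pathway genes was called in the interaction, beside 0.171% of all genes called in either direction. Their median interaction was -0.0066, beside -0.01 over all genes, so the estimate of IRF1 does not stand for the list. With both agents against none 14 of the 25 were called higher and none lower, with a median log2 change of 1.07. Over all genes, 7.12% were called higher and 6.73% lower. The addition was TAPBPL, a tapasin-related editor of class I peptides. TAPBPL lost that call without untreated replicate 2 or replicate 1 of the combined group (edgeR adjusted p = 0.116 and 0.12).

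**Figure D4:**
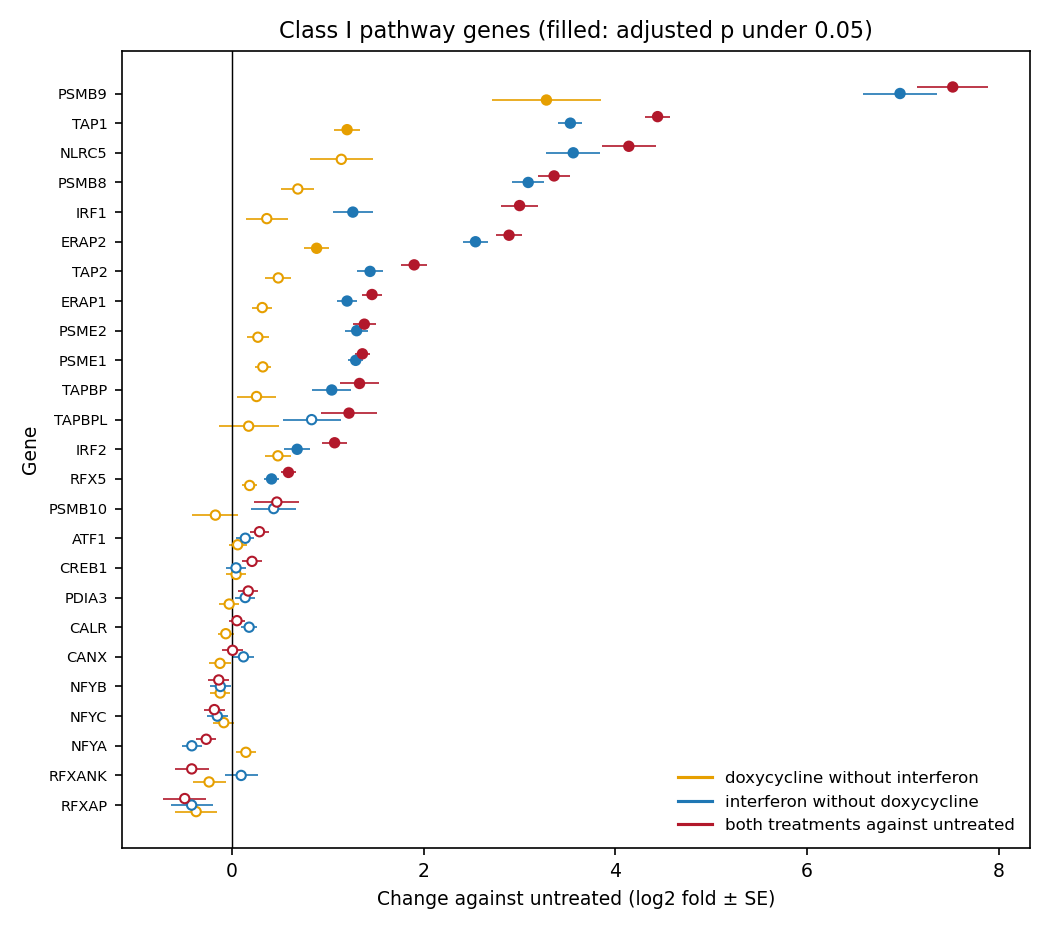
Log2 fold change ± SE against untreated cells of the 25 class I pathway genes with doxycycline, with interferon and with both agents; filled points have an adjusted p under 0.05. PSMB9, at 7.52 with both agents, starts from 0.285 and 0.0895 CPM in untreated cells, so its fold is uncertain. After PSMB9, the highest points with both agents are TAP1, NLRC5, PSMB8, IRF1 and ERAP2, while PSMB10, CALR, CANX and PDIA3 are open points.

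The class I pseudogenes, which share sequence with the heavy chains and could hold some of their reads, had 4 tested of 5 found in the table. Of all genes tested, 1.62% were called higher with interferon, 2.42% with interferon in doxycycline-treated cells and 7.12% with both agents against none. With interferon HLA-H was called, from 6.27 and 4.47 CPM to 22.2 and 16.4 CPM (log2 change 1.85 ± 0.27, edgeR adjusted p = 0.0024). That call was lost without untreated replicate 2 (edgeR adjusted p = 0.0601) or interferon replicate 1 (edgeR adjusted p = 0.0617). With both agents against none HLA-H, HLA-J and HLA-L were called, with log2 changes of 2.23 ± 0.26, 1.53 ± 0.32 and 1.36 ± 0.28 (edgeR adjusted p = 0.00025, 0.011 and 0.0094), and HCG4 was not (1.0 ± 0.39, edgeR adjusted p = 0.11). HLA-J lost that call without either untreated library and HLA-L without untreated replicate 2 (edgeR adjusted p = 0.0595, 0.0603 and 0.0721). Interferon in doxycycline-treated cells gave calls for the same 3 pseudogenes, and HLA-J and HLA-L lost theirs without either library of the combined group (edgeR adjusted p from 0.0701 to 0.131), without doxycycline replicate 1 (edgeR adjusted p = 0.205 and 0.146) and with DESeq2 (adjusted p = 0.13 and 0.0732). HLA-L also lost it without doxycycline replicate 2 (edgeR adjusted p = 0.147), and HLA-J without untreated replicate 2 or either interferon library (edgeR adjusted p from 0.0589 to 0.082), with summed rows (edgeR adjusted p = 0.063) and with only the groups compared (edgeR adjusted p = 0.111). With doxycycline, alone or on top of interferon, none of the 4 was called, beside 0.815% and 1.34% of all genes called in either direction.

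Few of the other class I-like genes were called. Of 10 such genes, several of which pair with B2M, 6 were tested, and none was called with either agent alone or on top of the other. Their median log2 change was -0.03 with interferon and 0.29 with doxycycline. Of all genes, 2.12% were called in either direction with interferon alone and 0.815% with doxycycline alone. The share was 3.33% for interferon on top of doxycycline, 1.34% for doxycycline on top of interferon and 13.9% with both agents against none. With both agents against none MR1, which pairs with B2M and presents vitamin metabolites, read 41.8 and 36.4 CPM against 22.8 and 16.7 CPM (log2 change 0.99 ± 0.16, edgeR adjusted p = 0.0027). PROCR, the endothelial protein C receptor, was called as well (0.88 ± 0.20, edgeR adjusted p = 0.015), but not without untreated replicate 2 (edgeR adjusted p = 0.0929) or replicate 1 of the combined group (edgeR adjusted p = 0.121). FCGRT, the neonatal Fc receptor that also pairs with B2M, and CD1D were not called (-0.25 ± 0.18 and 0.56 ± 0.54, edgeR adjusted p = 0.37 and 0.52).

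Ligands of the activating receptor NKG2D, the stress-induced class I relatives, had 5 of 8 tested. None was called with either agent alone, beside 2.12% of all genes called in either direction with interferon and 0.815% with doxycycline. That share was 3.33% for interferon on top of doxycycline, 1.34% for doxycycline on top of interferon and 13.9% with both agents against none. ULBP1 read 5.03 and 5.28 CPM in untreated cells, 6.28 and 8.51 with interferon, 8.51 and 7.91 with doxycycline and 14.1 and 15.4 CPM with both agents (log2 change 1.51 ± 0.20 against untreated cells, edgeR adjusted p = 0.00063). Its libraries with both agents were above all others. On top of interferon its doxycycline change was 0.99 ± 0.19 (edgeR adjusted p = 0.034). That call did not hold without any 1 of the interferon libraries, the combined libraries or untreated replicate 2 (edgeR adjusted p from 0.0591 to 0.239). In doxycycline-treated cells its interferon change was 0.85 ± 0.19 (edgeR adjusted p = 0.035), which did not pass without any 1 of the doxycycline or combined libraries (edgeR adjusted p from 0.0907 to 0.234), with DESeq2 (adjusted p = 0.0816), with only the groups compared (edgeR adjusted p = 0.0598) or with summed rows (edgeR adjusted p = 0.0503). MICB changed by 0.51 ± 0.15 with both agents against none (edgeR adjusted p = 0.049), a call lost without any 1 of the 8 libraries (edgeR adjusted p from 0.0586 to 0.188) and with DESeq2 (adjusted p = 0.0747), among other settings. ULBP2 and MICA were not called there (0.63 ± 0.27 and 0.10 ± 0.16, edgeR adjusted p = 0.15 and 0.70).

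The 6 genes moved closely together over the 8 libraries, as log2 CPM correlated with Pearson's r between 0.975, for HLA-G and B2M, and 0.997, for HLA-F and HLA-G. These points share the 4 treatment groups, so r mostly reflects the difference between groups. Among 9932 other genes with a mean of at least 10 CPM, the pattern most like the average of the 6 was that of FTSJD2, an RNA cap methyltransferase gene (r = 0.9982), followed by UBE2L6, an enzyme of the ISG15 conjugation pathway (r = 0.9977), and TRIM25, a ubiquitin ligase (r = 0.9953). BTN3A3, a butyrophilin, and RNF213, a large ubiquitin ligase, both had r = 0.9947. UBE2L6 read 34.2, 304.1, 56.7 and 389.4 CPM as means of the untreated, interferon, doxycycline and combined groups, and RNF213 133.2, 887.7, 241.8 and 1159 CPM. These means rise in the same order of groups as those of all 6 class I genes.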

How the data were processed

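RNA was extracted with trizol and made into libraries with a stranded total RNA kit, per the labels' protocols. The values are counts of reads per transcript, deposited by the authors without normalisation. CASAVA 1.8.2, edgeR and the build hg19 are named in the submitters' processing notes; the sources used here do not give their roles, the aligner or the use of strand. For each symbol the row with the highest total was kept. Of the 6 genes only HLA-F had several rows, and its 3 rows held nearly equal totals (794, 793 and 726 reads).

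Tests were run in edgeR 4.0.16 under R 4.3.3 (quasi-likelihood F test, TMM factors 0.977 to 1.026, default low-count filter, 4 group means over 8 libraries, adjusted p threshold 0.05). CPM used TMM library sizes, and RPKM used GENCODE transcript lengths, known for 97.6% of symbols. Replicates differed by more than sampling noise (chi-square per degree of freedom 4.1 to 8.57), so none was counted as a duplicate. Alternatives were relative log expression size factors, DESeq2 1.42.0, other filters, only the groups compared, a replicate block, summed rows, a loess correction for GC content and length (span 0.3, GC known for 98.3% of tested genes), and leaving out each library, after which a lone library was assumed to vary like the other groups. On simulated data of 14491 genes for interferon without doxycycline, 97% of 2-fold and 100% of 4-fold changes were recovered. Those changes were placed only in genes above a level that HLA-F and HLA-G do not reach in untreated cells. The simulated spread was the same for all genes, without a GC trend, so these rates do not cover HLA-F and HLA-G.

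Named list genes were the 4 with the smallest p for both agents against none, and the likeness rule took 6 genes, of which 1 is not reported here; list genes named outside that rule (such as NLRC5, IRF1 and TAPBPL) were chosen after their values were seen. The members, lists and tests were chosen with earlier results of these data known.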

Additional observations from a re-analysis of the deposited data

How the results depend on the processing

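Outside the interaction, all 539 alternative values of the 6 genes stayed above 0, and with interferon or both agents the count of 6 genes called changed only when a library was left out (HLA-G). With doxycycline alone the count of the 6 genes called was 1, and 2 with DESeq2, 2 with the GC correction and 3 with the replicate block and GC correction together. On top of interferon it was 2, and 1 with the replicate block, 1 with summed rows, 5 with the GC correction with or without the block, and 0 to 2 on leaving out a library. Replicate numbers did not pair the samples across all 4 groups. Correlations of same-numbered deviations were 0.337 for untreated and interferon and 0.451 for doxycycline and both agents. Between groups with and without doxycycline they ran from -0.353 to -0.116. Whether a factor shared by libraries lay behind this was not tested. The crossed block given below swaps the replicate numbers in the groups with doxycycline. The block alone ended the calls of HLA-E on top of interferon (edgeR adjusted p = 0.0573), TAPBP with interferon (0.07), HLA-J, HLA-L and ULBP1 with interferon in doxycycline-treated cells (0.0563, 0.0581 and 0.0605), ULBP1 with doxycycline on top of interferon (0.0568) and MICB with both agents (0.0733). It changed no other call of the 6 genes; a crossed block, added after seeing the data, gave 3 with doxycycline and 4 on top of interferon, and 1117, 1252, 1864, 1497, 53 and 4734 genes in all in the order that follows. For interferon, doxycycline, interferon with doxycycline, doxycycline with interferon, the interaction and both agents, 310, 119, 486, 196, 25 and 2023 genes were called. The GC correction gave 950, 550, 1478, 612, 51 and 3073, and with the replicate block 1071, 767, 1650, 766, 51 and 3321. DESeq2 gave 236 with doxycycline and 43 in the interaction, no filter gave 207 with doxycycline, and only the groups compared gave 78. Leaving out a library gave 174 to 336, 54 to 131, 290 to 480, 46 to 266, 9 to 20 and 712 to 2589. With all HLA class I symbols the heavy-chain fold was 5.83 with interferon, 5.64 for both agents over doxycycline and 8.35 over untreated. The causes were not tested. A fit of only the groups compared does not exist for the interaction, which uses all 4. At 10 to 48 reads a library, HLA-G limits what can be seen.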
